A study of Mus musculus with 15 samples.

Results

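A set of 10 genes of mitochondrial and general antioxidant defence was followed in mouse liver: Nnt, the superoxide dismutases Sod1 and Sod2, Cat, the glutathione peroxidases Gpx1 and Gpx4, the peroxiredoxins Prdx3 and Prdx5, and the mitochondrial thioredoxin pair Txn2 and Txnrd2. They were chosen by name, together with every probe set that the array annotation assigns to 1 of these symbols alone. The annotation gave 25 of the 45101 probe sets to 9 of the 10 genes and none to Prdx5, which was therefore not measured here. In the comparisons by gene the 9 measured genes stood among 18193.

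Liver RNA was hybridised to Affymetrix mouse 430 2.0 arrays, 1 array for each of 15 male mice. The XKA-H group was 5 KKAy mice given XKA (Xiao-Ke-An, a herbal formula used in China against type 2 diabetes) by gavage at 1.5 g/kg for 32 days, the KKAy model group was 5 KKAy mice given distilled water, and the C57BL/6J group was 5 non-diabetic mice given distilled water. Gavage began at 10 weeks of age in the KKAy mice, a strain whose lethal yellow allele of agouti leads to obesity and diabetes, and the C57BL/6J mice were of matched age and sex. Both KKAy groups ate a high-fat diet, whereas the C57BL/6J mice ate normal chow and came from another supplier, so strain, diet and supplier cannot be told apart in any comparison with C57BL/6J. C57BL/6J mice also carry a spontaneous deletion of several exons of Nnt, and the labels and methods do not state the Nnt genotype of the KKAy mice.

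NNT sits in the inner mitochondrial membrane and uses the proton gradient to pass hydride from NADH to NADP+, which makes it a source of NADPH in the matrix. That NADPH keeps glutathione and thioredoxin reduced. SOD2 turns matrix superoxide into hydrogen peroxide, which PRDX3 removes with electrons from thioredoxin 2 and thioredoxin reductase 2, and which glutathione peroxidases remove with glutathione. SOD1 acts mainly in the cytosol and catalase mainly in peroxisomes, and the liver is rich in both. GPX4 is the enzyme that reduces lipid hydroperoxides within membranes.

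The deposited intensities had array medians of 136 to 161 for XKA-H, 127 to 162 for KKAy model and 146 to 182 for C57BL/6J mice. Every array was therefore scaled to a median of 1000, the target named in the methods, and all signals below are on that scale unless another is named. Groups were compared on log2 signals with limma over all genes and all 15 arrays, and a gene was called at a Benjamini-Hochberg adjusted p under 0.05. The KKAy model arrays serve in 2 of the 3 comparisons, and so do the C57BL/6J arrays and the XKA-H arrays, so the comparisons are not independent of each other. The 6 measured hepatocyte markers (Alb, Apoa1, Ttr, Cps1, Cyp2e1 and Fgb) were all above the array median in every group and none was called in any comparison. In whole liver, fewer cells of a type and less RNA per cell cannot be told apart.

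Nnt was the member with the largest difference, and it separated the 2 KKAy groups from C57BL/6J. Its brightest probe set, 1456573_x_at, read 113376, 135384, 126031, 115497 and 88736 in the XKA-H mice, and 86533, 124039, 101640, 120731 and 97120 in the KKAy model mice. It read 31664, 41240, 38725, 33279 and 44026 in the C57BL/6J mice. No C57BL/6J array reached the lowest KKAy array of either group, while the 2 KKAy groups overlapped over most of their range.

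Means of Nnt were 106013 ± 15963 in KKAy model mice and 37787 ± 5233 in C57BL/6J mice (SD, n = 5 each). The log2 change was 1.49 (SE 0.14, 95% interval 1.19 to 1.78), a ratio of 2.80, with an adjusted p of 4.94e-07 in limma. In XKA-H mice the mean was 115805 ± 17512 (SD, n = 5), and the change against C57BL/6J was 1.61 on the log2 scale (SE 0.14, adjusted p 2.28e-07). XKA-H and KKAy model mice differed by 0.13 on the log2 scale, with a 95% interval of -0.17 to 0.42 (adjusted p 0.858).

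A second Nnt probe set gave the same order of groups. Probe set 1416105_at read 72328, 94696, 86584, 81908 and 63637 in XKA-H mice, 81222, 78444, 76711, 77827 and 64297 in KKAy model mice, and 24999, 28161, 24336, 20715 and 26464 in C57BL/6J mice. Its log2 change between KKAy model and C57BL/6J was 1.60 (SE 0.13, adjusted p 3.52e-08 over all probe sets), and again the C57BL/6J arrays lay apart from all others. The third, 1432608_at, was dim, with 5 XKA-H arrays at 785 to 1515, 5 KKAy model arrays at 633 to 1801 and 5 C57BL/6J arrays at 610 to 1005, around or below the array median. Its groups overlapped and its log2 change between KKAy model and C57BL/6J was 0.40 (SE 0.33, adjusted p 0.563).

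**Figure D1:**
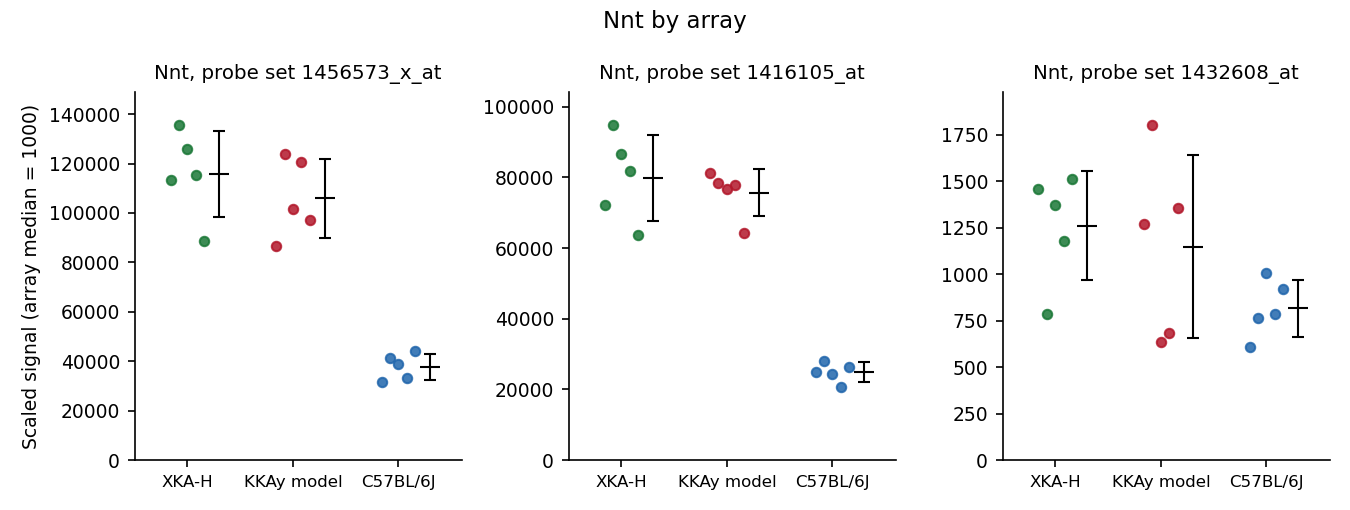
Scaled signal of the 3 Nnt probe sets (vertical axes, array median at 1000) in XKA-H, KKAy model and C57BL/6J livers; each point is 1 mouse, with the group mean and SD (n = 5) beside the points. In the first and second panels every C57BL/6J point lies below every KKAy point, while the third probe set is dim and its groups overlap.

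The C57BL/6J signals of the first pair of probe sets stayed far above the array median. Where the Nnt probe sets lie relative to the deleted exons was not known here, so these signals do not check the deletion. The suffix _x_at of 1456573_x_at marks probes that may also match other transcripts, and detection calls were not used here.

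The genes around Nnt on its chromosome were read for comparison. Of the 4 nearest measured protein-coding genes on each side (Parp8, Emb, Mrps30 and Fgf10 on one, Paip1, 4833420G17Rik, Tmem267 and Ccl28 on the other), 0 of 8 were called in any of the 3 comparisons. Over all genes 10.5% were called higher and 2.36% lower between KKAy model and C57BL/6J. The shares were 5.49% and 1.88% between XKA-H and C57BL/6J, and 0.066% and 0.11% between XKA-H and KKAy model. With 8 genes, 0 calls is near these shares. Parp8, Emb and Fgf10 were dim, averaging 405, 947 and 459 over all arrays, with SE of 0.54, 0.38 and 0.78. Paip1, a translation factor partner, averaged 21225 ± 3019 in KKAy model mice and 20486 ± 2399 in C57BL/6J mice, a log2 change of 0.05 (SE 0.13, adjusted p 0.873). Tmem267 came closest to a call, at 4981 ± 1343 in KKAy model mice and 7390 ± 2920 in C57BL/6J mice, with a log2 change of -0.54 (SE 0.23, adjusted p 0.139).

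Among the remaining members 1 rose and 1 fell in KKAy model livers. In all, 2 of the 9 measured genes were called higher than in C57BL/6J (Nnt and Sod2), against 10.5% of all genes, and 1 was called lower (Txn2), against 2.36%. The groups of these 3 genes did not overlap, as was true of 10.5% of all genes, and 5 members had an unadjusted p under 0.05. The median log2 change of the members was 0.17, beside 0.15 over all genes, so an ordinary gene of this array shifted upward by nearly as much on this scale.

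Sod2, the matrix superoxide dismutase, was higher in KKAy model livers. Its signals were 219323, 206989, 282039, 219139 and 168841 in KKAy model mice and 155241, 157031, 116384, 133788 and 142998 in C57BL/6J mice. The lowest KKAy model array was above the highest C57BL/6J array. Means were 219266 and 141088, with a log2 change of 0.63 (SE 0.14, 95% interval 0.33 to 0.93, adjusted p 0.00618).

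The Sod2 probe sets moved by unequal amounts between KKAy model and C57BL/6J. Beside 0.63 for 1448610_a_at, the changes were 0.39 for 1454976_at (adjusted p 0.0904 over all probe sets), 0.34 for 1417193_at (0.223) and 0.04 for the dim 1417194_at (0.950). With the mean of the probe sets in place of the brightest one, the change of Sod2 was 0.35 and it was no longer called (adjusted p 0.132).

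In XKA-H mice Sod2 read 159637, 205020, 188259, 165239 and 169735, between the other groups on average. The XKA-H mean of 177578 against the KKAy model mean of 219266 gave a log2 change of -0.29 with a 95% interval of -0.59 to 0.01 (unadjusted p 0.0565, adjusted p 0.604), and the arrays of the 2 groups overlapped. On the median scale every XKA-H array was above every C57BL/6J array, yet that change of 0.33 (SE 0.14) had an adjusted p of 0.194. In the deposited values XKA-H replicate 4 (22531) was below C57BL/6J replicates 1 (22688), 2 (23952) and 5 (23359).

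Sod2 is known to be induced by inflammatory cytokines, and KKAy model replicate 3, its highest array, also stood high in acute phase genes. The mean of 10 acute phase genes, chosen after the values were seen, was 1.25 log2 units above its group mean in that array and 1.29 above in XKA-H replicate 1, whose Sod2 signal was the lowest of its group. These acute phase values are deviations from each group's own mean, so they do not compare the groups. Without both arrays the log2 change of Sod2 between KKAy model and C57BL/6J was 0.53 (adjusted p 0.0177 in limma). Whether the acute phase genes have a part in the Sod2 level was not tested.

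Txn2, the mitochondrial thioredoxin, was lower in KKAy model livers. It read 16419, 16110, 14914, 17422 and 13429 in KKAy model mice and 28508, 23980, 18746, 18645 and 20193 in C57BL/6J mice. All KKAy model arrays were below all C57BL/6J arrays, with the highest C57BL/6J array well above the rest of its group. The means of 15659 and 22015 gave a log2 change of -0.48 (SE 0.14, 95% interval -0.77 to -0.18, adjusted p 0.0307).

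The 3 Txn2 probe sets gave nearly equal changes between KKAy model and C57BL/6J. These were -0.48 for 1452782_a_at (adjusted p 0.0426 over all probe sets), -0.47 for 1455640_a_at (0.0462) and -0.47 for 1421557_x_at (0.101). On the median scale the call of Txn2 by gene was lost when 1 array was left out in 5 of 15 cases. These were KKAy model replicates 2 (adjusted p 0.0517), 3 (0.0680) and 5 (0.0612) and C57BL/6J replicates 1 (0.0796) and 2 (0.0734). With all arrays the change was larger on other scalings. It was -0.67 after quantile normalization (adjusted p 3.36e-05 in limma), -0.67 in the deposited values (0.000305) and -0.60 at the 75th percentile (0.000300).

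In XKA-H livers Txn2 read 14198, 18616, 21652, 17645 and 14560, overlapping both other groups. It differed from KKAy model by 0.13 on the log2 scale (95% interval -0.16 to 0.43, adjusted p 0.848) and from C57BL/6J by -0.34 (SE 0.14, adjusted p 0.174). The change against C57BL/6J depended on the scaling of the arrays. Quantile normalization put it at -0.49 (adjusted p 0.00102) and the deposited values at -0.50 (adjusted p 0.00547), so Txn2 was called lower there and not on the median scale.

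The partners of Txn2 were not called on the median scale. Prdx3, which thioredoxin 2 keeps active, averaged 60789 in KKAy model mice and 60459 in C57BL/6J mice, a log2 change of -0.00 with a 95% interval of -0.32 to 0.32 (adjusted p 0.992). In XKA-H against C57BL/6J livers Prdx3 changed by -0.13 (adjusted p 0.733), and after quantile normalization it was called lower there (-0.27, adjusted p 0.0365). Txnrd2, the selenoprotein that reduces thioredoxin 2, averaged 9277 in KKAy model and 8788 in C57BL/6J mice, with a change of 0.10 (95% interval -0.22 to 0.42, adjusted p 0.748) that turned to -0.061 after quantile normalization. One of its other probe sets, 1429972_s_at, was lower in KKAy model mice (3529 to 4855) than in C57BL/6J mice (5047 to 7369), with a log2 change of -0.52 (adjusted p 0.0280 over all probe sets), while 1429971_at and 1451936_a_at gave 0.04 and -0.01.

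**Figure D2:**
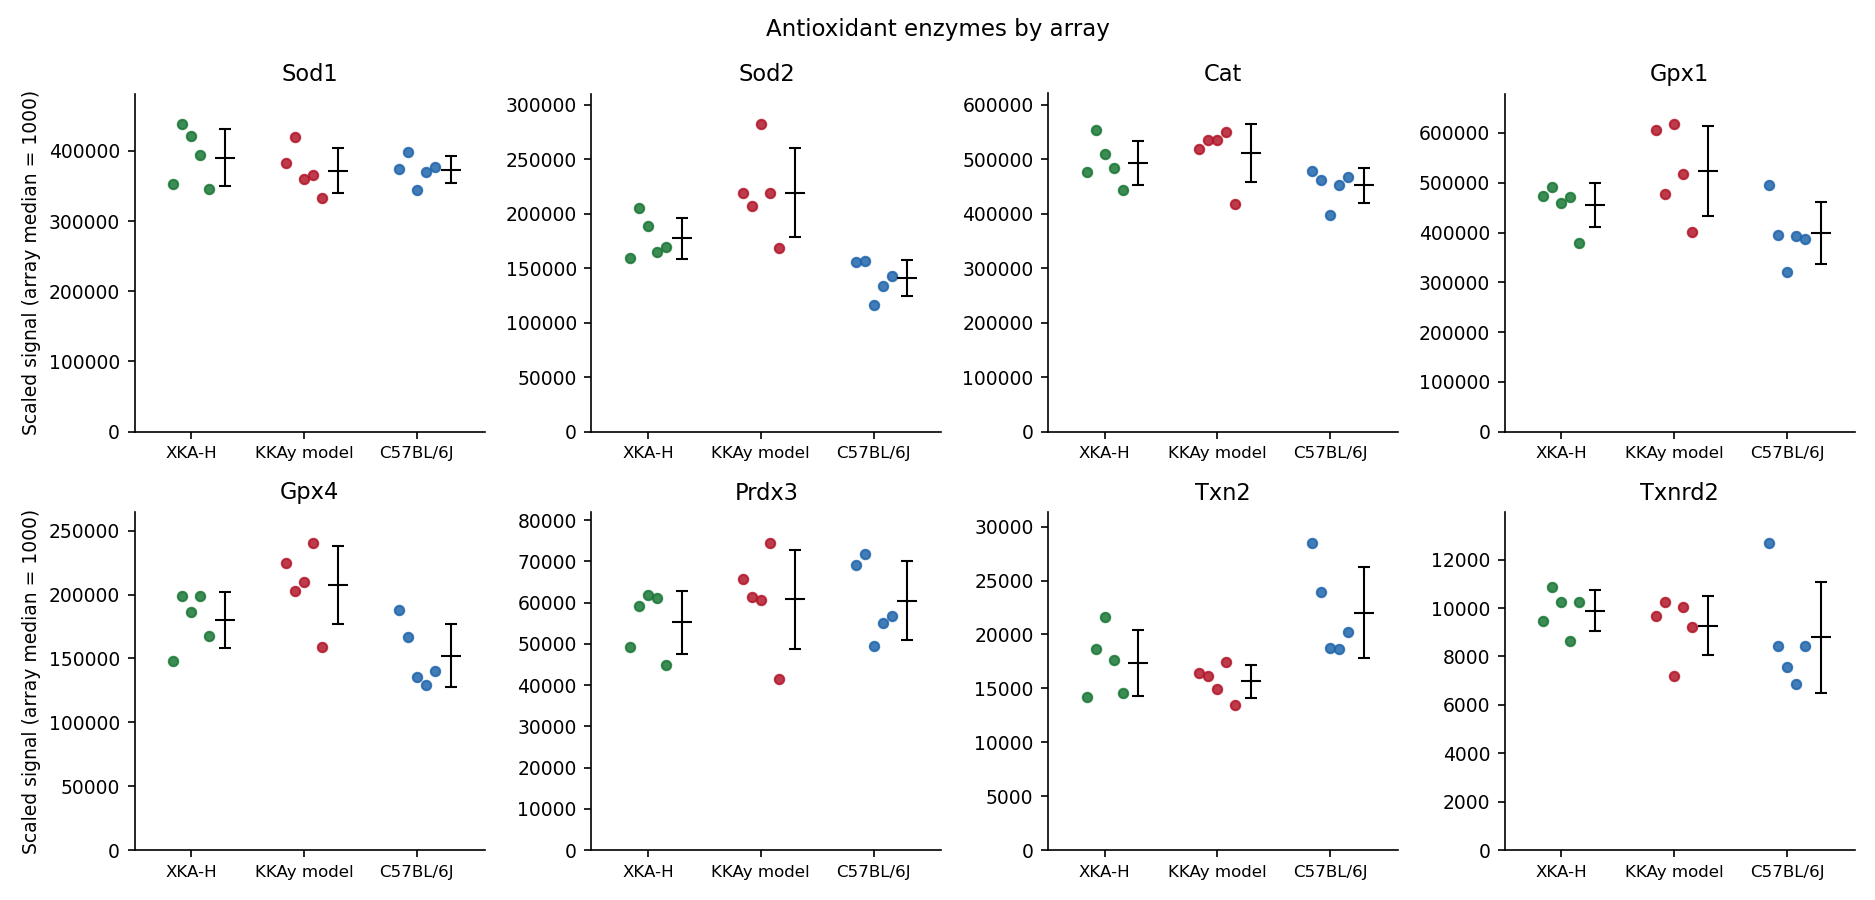
Scaled signal of the brightest probe set of 8 genes (vertical axes, array median at 1000) in XKA-H, KKAy model and C57BL/6J livers; each point is 1 mouse, with the group mean and SD (n = 5) beside the points. KKAy model points lie above all C57BL/6J points for Sod2 and below all of them for Txn2, and the groups overlap in the remaining panels apart from Sod2 in XKA-H against C57BL/6J.

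Both glutathione peroxidases read higher on average in KKAy model livers without passing the test. Gpx4 read 224602, 202621, 209645, 240556 and 159251 in KKAy model mice and 187968, 166782, 135843, 129425 and 140579 in C57BL/6J mice, so that 1 KKAy model array fell among the C57BL/6J arrays. Its log2 change was 0.45 (SE 0.15, 95% interval 0.14 to 0.76, adjusted p 0.0510), just short of the threshold. Of 28 alternative settings 9 placed it below 0.05, quantile normalization among them (0.28, adjusted p 0.0204). The other Gpx4 probe set, 1456193_x_at, gave 0.34 (SE 0.28, adjusted p 0.554 over all probe sets). With the mean of the probe sets the change of Gpx4 was 0.39 (adjusted p 0.295). Gpx1, the most abundant glutathione peroxidase of liver, ranged from 401684 to 617497 in KKAy model mice and from 320520 to 494581 in C57BL/6J mice, with a change of 0.39 (95% interval 0.04 to 0.74, unadjusted p 0.0299, adjusted p 0.142).

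Cat and Sod1 were bright on all arrays. Cat, the peroxisomal catalase, averaged 511176 in KKAy model mice and 451793 in C57BL/6J mice, a log2 change of 0.17 (95% interval -0.13 to 0.48, adjusted p 0.511) that turned to -0.083 after quantile normalization. Sod1, the copper and zinc enzyme, averaged 371904 and 372985 in the same groups, a change of -0.01 (95% interval -0.29 to 0.28, adjusted p 0.984).

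Of the probe sets of all members, 4 of 25 were called higher in KKAy model than in C57BL/6J livers, against 6.07% of all probe sets, and 4 were called lower, against 2.38%. Beside those of Nnt, Sod2, Txn2 and Txnrd2 already given, these were a pair of dim Sod1 probe sets that moved in opposite directions. Probe set 1447761_x_at (log2 change 3.76, adjusted p 0.0128) read 252 to 345 in KKAy model mice and 6.71 to 192 in C57BL/6J mice, all below the array median, and 1440222_at (-1.17, adjusted p 0.0176) read 435 to 976 in KKAy model mice and 1175 to 2133 in C57BL/6J mice. The bright Sod1 probe sets 1459976_s_at and 1451124_at gave changes of -0.01 and 0.11.

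In XKA-H against KKAy model livers no member was called in either direction, beside 0.066% of all genes called higher and 0.11% called lower. No member had an unadjusted p under 0.05 and none had groups that did not overlap, against 1.45% of all genes, and 0 of 25 probe sets were called, beside 0.0355% of all probe sets called higher and 0.0444% lower. The changes of the 9 genes ran from -0.29 for Sod2 to 0.13 for Txn2 on the log2 scale, with a median of -0.05 beside -0.06 over all genes. Of the 25 probe sets, 2 had an unadjusted p under 0.05, namely 1440222_at of Sod1 (log2 change 0.93, adjusted p 0.365) and 1429972_s_at of Txnrd2 (0.34, adjusted p 0.542). In both, every XKA-H array was above every KKAy model array. The share of all probe sets without overlap was not taken.

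Gpx4 ranged from 147971 to 199007 in XKA-H mice and from 159251 to 240556 in KKAy model mice, and Gpx1 from 378018 to 491626 and from 401684 to 617497 in the same groups. Their groups overlapped, with log2 changes of -0.20 for Gpx4 (95% interval -0.51 to 0.11) and -0.19 for Gpx1 (-0.54 to 0.16). The other log2 changes were -0.12 for Prdx3 (-0.44 to 0.20), -0.05 for Cat (-0.35 to 0.25), 0.07 for Sod1 (-0.22 to 0.35) and 0.10 for Txnrd2 (-0.22 to 0.42). The reverse rate of the methods, the KKAy model mean minus the XKA-H mean over the KKAy model mean minus the C57BL/6J mean, was 0.53 for Sod2, 0.26 for Txn2 and -0.14 for Nnt. It carries no test, and with single arrays left out it ran from 0.42 to 0.62 for Sod2, from 0.094 to 0.39 for Txn2 and from -0.24 to -0.067 for Nnt. The lowest value for Txn2 came when XKA-H replicate 3 was left out, and the outermost values for Nnt when XKA-H replicate 5 (-0.24) or KKAy model replicate 1 (-0.067) was. The KKAy model mean enters both of its terms. Each rate rests on the brightest probe set of its gene. Between XKA-H and KKAy model the Sod2 probe set 1448610_a_at changed by -0.29 on the log2 scale. The other Sod2 probe sets changed less, by -0.05 for 1454976_at, -0.16 for 1417193_at and -0.18 for the dim 1417194_at. Means of 1454976_at were 27505 in XKA-H, 28113 in KKAy model and 21419 in C57BL/6J mice.

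In XKA-H against C57BL/6J livers Nnt alone was called, 1 of 9 higher against 5.49% of all genes, and 0 were called lower against 1.88%. The groups did not overlap for Nnt and Sod2, beside 6.95% of all genes, and 3 members had an unadjusted p under 0.05 (Nnt, Sod2 and Txn2). By probe set, 2 of 25 were called higher, both of Nnt, against 3.32%, and 0 were called lower, against 1.46%. The median change of the members was 0.20, beside 0.10 over all genes.

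**Figure D3:**
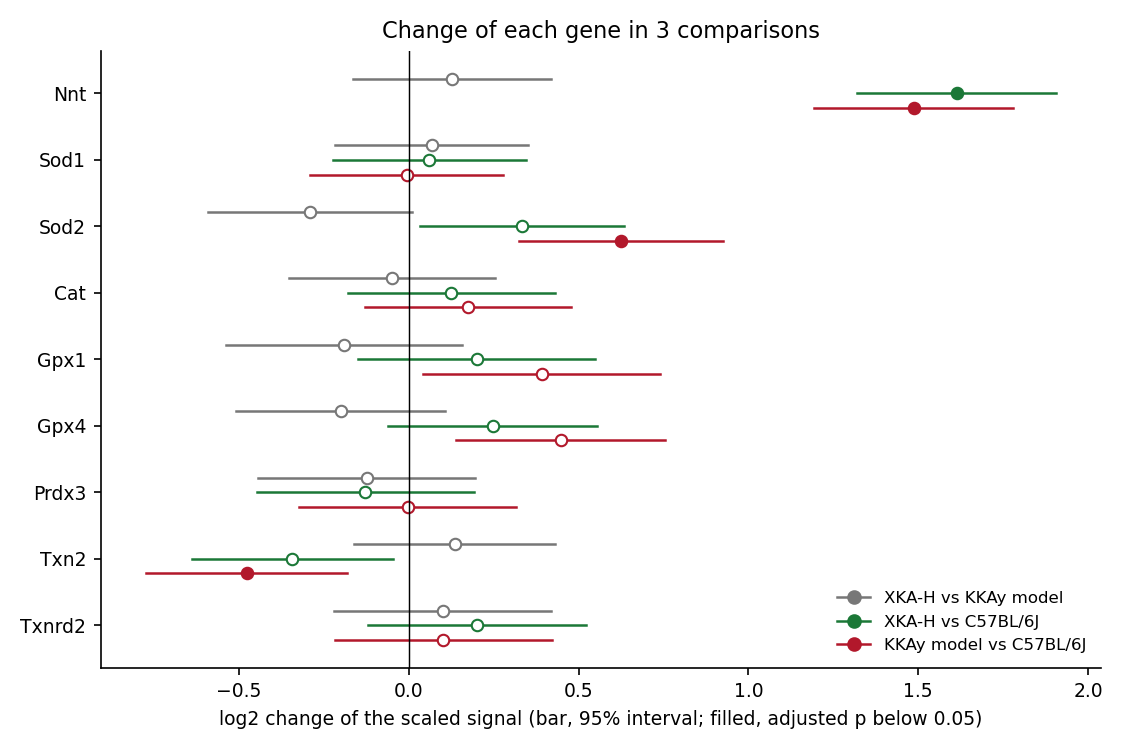
log2 change of each measured gene (horizontal axis) in XKA-H against KKAy model, XKA-H against C57BL/6J and KKAy model against C57BL/6J; points are limma estimates, bars are 95% intervals and filled points have an adjusted p under 0.05. Nnt stands apart at 1.61 and 1.49 in the comparisons with C57BL/6J, and all 9 intervals of XKA-H against KKAy model include 0.

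Array by array the members tended to rise and fall together on the median scale. The pooled SD within groups ranged from 0.12 (Sod1) to 0.26 (Prdx3) log2 units with a median of 0.21, beside 0.43 over all genes. Their deviations from group means were positively related in 34 of 36 pairs of members, with a median Pearson r of 0.58 over 15 arrays, described here without a test because all members of an array share its scaling factor. In 5 arrays 8 of 9 members were below the group mean. They were XKA-H replicate 5, KKAy model replicate 5 and C57BL/6J replicate 3, with the highest deposited medians of their groups (161, 162 and 182), and also XKA-H replicate 1 (149) and C57BL/6J replicate 4 (160), which were not the highest of theirs. After quantile normalization the median r was -0.11 and 14 of 36 pairs were above 0, and the median SD of the members was 0.12.

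The 5 genes whose deviations were most like those of Nnt, among 11211 genes brighter than the array median, were Cox17 (Pearson r 0.86), Pogz (0.84), Lamtor5 (0.84), Efr3a (0.84) and Sf3b2 (0.83), over 15 arrays that also share scaling and RNA quality. After quantile normalization of the same 15 arrays their r with Nnt was 0.75 to 0.88. The 5 were picked as the highest of 11211 genes, so high values come in part from that choice and neither r is an independent test. None of the 5 was called between KKAy model and C57BL/6J, with log2 changes of -0.26 to 0.21.

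To set the members against the mitochondrial transcripts of the same liver, each array was also centred on 28 mitochondrial content genes (import, chaperones, respiration, carriers and DNA upkeep), a setting added after the values were seen. Relative to these genes Txn2 then averaged -1.95 log2 units in XKA-H, -2.12 in KKAy model and -1.48 in C57BL/6J livers. Each group held a narrow range, from -1.98 to -1.82 in XKA-H, from -2.22 to -2.04 in KKAy model and from -1.61 to -1.30 in C57BL/6J. No 2 of the 3 groups overlapped here, whereas XKA-H overlapped both other groups on the median scale. The share of all genes without overlap was taken on the median scale alone. With the mitochondrial centring Txn2 was called lower in KKAy model than in C57BL/6J (log2 change -0.63, SE 0.08, adjusted p 1.82e-05) and in XKA-H than in C57BL/6J (-0.46, SE 0.08, adjusted p 0.000656). It was not called between XKA-H and KKAy model (0.17, adjusted p 0.425).

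On the same scale Nnt averaged 0.80 log2 units in XKA-H, 0.63 in KKAy model and -0.70 in C57BL/6J livers. Sod2 kept its call between KKAy model and C57BL/6J (0.47, adjusted p 0.00264), and Gpx4 gained one (0.29, SE 0.08, adjusted p 0.0159). The Sod2 ranges of XKA-H (1.25 to 1.57) and C57BL/6J (1.11 to 1.28) overlapped here, whereas they lay apart on the median scale. Prdx3 was not called against C57BL/6J in XKA-H (-0.25, adjusted p 0.0741) or KKAy model livers (-0.16, adjusted p 0.241).

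**Figure D4:**
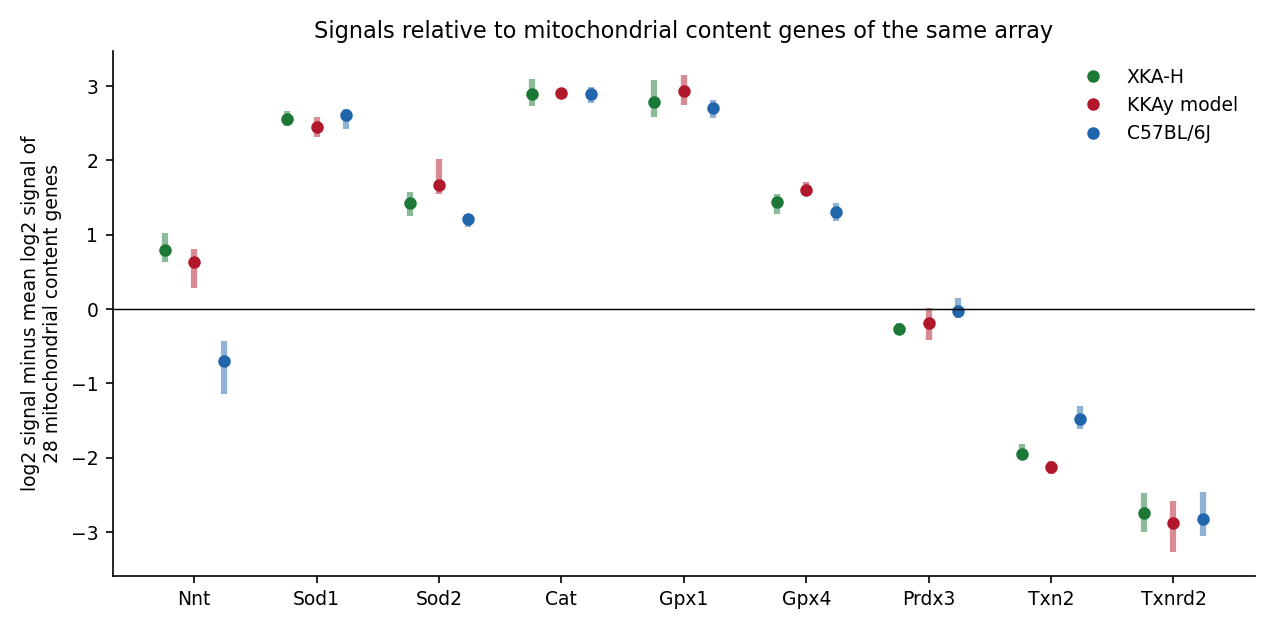
log2 signal of each gene minus the mean log2 signal of 28 mitochondrial content genes on the same array (vertical axis) in XKA-H, KKAy model and C57BL/6J livers; points are group means and bars run from the lowest to the highest of 5 arrays. The Txn2 bars of the 3 groups are apart from each other, and the C57BL/6J bar of Nnt lies below 0 while both KKAy bars lie above it. On the median scale the XKA-H arrays of Txn2 overlap both other groups. The Sod2 bars of XKA-H and C57BL/6J overlap here, though not on the median scale.

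The stretches of 250 bases before the start sites of Sod2 and Txn2, the 2 called members other than Nnt, are shown because these genes moved in opposite directions in KKAy model livers. They come from RefSeq on build GRCm38.p6, where 9 of the 10 members had an entry, and capitals mark the motifs named below on either strand. Sod2 is on the plus strand at chr17:13007589-13007838, and Txn2 is on the minus strand at chr15:77928995-77929244.
Sod2: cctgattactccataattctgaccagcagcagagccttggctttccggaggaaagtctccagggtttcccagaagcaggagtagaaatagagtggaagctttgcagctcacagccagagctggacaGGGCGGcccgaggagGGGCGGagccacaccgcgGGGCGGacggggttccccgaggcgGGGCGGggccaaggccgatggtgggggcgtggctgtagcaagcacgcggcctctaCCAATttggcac
Txn2: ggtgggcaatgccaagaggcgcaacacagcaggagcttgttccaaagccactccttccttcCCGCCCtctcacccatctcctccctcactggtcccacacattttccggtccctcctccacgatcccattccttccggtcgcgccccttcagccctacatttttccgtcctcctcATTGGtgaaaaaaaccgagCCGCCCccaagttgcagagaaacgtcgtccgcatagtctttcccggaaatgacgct
The Sod2 window held 4 GC boxes (GGGCGG) and 1 CCAAT box at a GC content of 63.6%, and the Txn2 window held 2 GC boxes and 1 CCAAT box at 57.6%. Over 32851 windows of the same length, 32.7% held a GC box and 33.8% a CCAAT box. Neither window held the antioxidant response element core TGACNNNGC, found in 10.2% of windows, or TATAAA, found in 12.4%. A match is a description of letters and says nothing of whether a factor binds.

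The pathways around the members were read from 18 lists of related genes and cell type markers, with 179 measured genes other than the members. In KKAy model against C57BL/6J livers 29 of the 179 were called higher and 3 lower, beside 10.5% and 2.36% of all genes. In XKA-H against C57BL/6J livers 12 were called higher and 5 lower, beside 5.49% and 1.88% of all genes, with 14 and 11 after quantile normalization and 9 and 7 in the deposited values. In XKA-H against KKAy model livers 0 of the 179 were called, beside 0.066% of all genes called higher and 0.11% called lower. An unadjusted p under 0.05 in limma was found for 25 of the 179 genes and for 1561 of all 18193 genes. The balance in KKAy model livers followed the scaling, with 24 higher and 15 lower after quantile normalization and 17 higher and 12 lower in the deposited values, and over all genes the split of 1906 higher and 430 lower became 1587 and 1092 after quantile normalization and 1118 and 1017 in the deposited values.

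Of 11 genes around mitochondrial NADPH, 2 were called higher in KKAy model than in C57BL/6J livers and 0 lower, with a median log2 change of 0.23. Beside Nnt this was Mthfd1l, a mitochondrial one-carbon enzyme that releases formate and does not itself make NADPH. It averaged 13980 ± 3316 in XKA-H, 9706 ± 3137 in KKAy model and 2095 ± 659.9 in C57BL/6J mice (SD, n = 5 each). Its log2 change between KKAy model and C57BL/6J was 2.20 (SE 0.23, adjusted p 1.73e-06). Idh2, the matrix isocitrate dehydrogenase that makes NADPH, averaged 36519 in KKAy model mice and 32238 in C57BL/6J mice (log2 change 0.16, SE 0.15, adjusted p 0.570), and was not called.

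Of 9 genes of cytosolic NADPH supply 3 were called higher in KKAy model than in C57BL/6J livers and 0 lower, with a median of 0.35. The absence of lower calls held on the median scale alone, with 2 higher and 2 lower in the deposited values, after quantile normalization and with mitochondrial centring, and 3 higher and 1 lower at the 75th percentile. Me1, the cytosolic malic enzyme, averaged 84412 ± 15579 in KKAy model mice and 34806 ± 10746 in C57BL/6J mice, a log2 change of 1.31 (adjusted p 0.000255). Taldo1 and H6pd, both tied to the pentose phosphate route, changed by 0.83 and 0.53 (adjusted p 0.00102 and 0.0330), and the call of H6pd held on 2 of 5 scalings.

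Of 18 genes of glutathione supply and use 5 were called higher in KKAy model than in C57BL/6J livers and 0 lower, with a median of 0.38. On the other 4 scalings 2 (deposited values) or 7 were called higher and 0 lower. Gclc, the catalytic subunit of the rate-limiting enzyme of glutathione synthesis, averaged 237774 ± 32056 in KKAy model mice and 109118 ± 25472 in C57BL/6J mice, a log2 change of 1.14 (adjusted p 0.000303). Gclm, its modifier subunit, changed by 0.64 (adjusted p 0.00568), Slc25a40, the mitochondrial glutathione carrier, by 0.67 (adjusted p 0.0202) and Gpx3, the secreted peroxidase, by 0.97 (adjusted p 0.0307). The call of Slc25a40 held on 4 of 5 scalings and that of Gpx3 on 3.

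Of 17 peroxiredoxin, thioredoxin, glutaredoxin and related genes 5 were called higher in KKAy model than in C57BL/6J livers and 1, Txn2, lower, with 4 to 6 higher and 2 lower on the other 4 scalings. Glrx, the cytosolic glutaredoxin, averaged 67906 ± 11500 in KKAy model mice and 30467 ± 7408 in C57BL/6J mice, a log2 change of 1.17 (adjusted p 9.49e-05). The methionine sulfoxide reductases Msra and Msrb1 changed by 0.82 and 0.69 (adjusted p 0.000588 and 0.00374), and Srxn1, which repairs overoxidised peroxiredoxins, by 0.62 (adjusted p 0.00623). The median of this list was 0.27, so Txn2 at -0.48 moved against most of it.

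Among 10 genes of superoxide dismutases, catalase and their cofactors, Slc25a33, a mitochondrial pyrimidine nucleotide carrier, was called higher beside Sod2 (0.90, adjusted p 0.000707), and 1 gene was called lower after quantile normalization and with mitochondrial centring. Of 17 producers of superoxide or hydrogen peroxide 4 were called higher and 1 lower in KKAy model than in C57BL/6J livers. Gpd2, the mitochondrial glycerol phosphate dehydrogenase, averaged 24824 ± 2787 in KKAy model mice and 11046 ± 559.1 in C57BL/6J mice (log2 change 1.16, adjusted p 1.33e-06), and Maoa, the outer membrane monoamine oxidase, averaged 5033 ± 854.0 and 8817 ± 1326 in the same groups (-0.81, adjusted p 0.00118). Cyba, an NADPH oxidase subunit, and Hao1, the peroxisomal glycolate oxidase, changed by 0.75 and 0.61 (adjusted p 0.0194 and 0.00336), with the call of Cyba lost on 1 of 5 scalings.

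Of 12 genes of selenoprotein synthesis 1 was called higher (Scly, 0.59, adjusted p 0.0316) and 0 lower on the median scale, against 0 higher and 1 lower on each of the other 4 scalings. The regulators of antioxidant genes had 2 of 15 called higher and 0 lower, Foxo1 (0.71, adjusted p 0.00915) and Mafg (0.48, adjusted p 0.0199), while 1 was called lower on each of the other 4 scalings. Of 15 peroxisome genes 3 were called higher and 1, Pex19, lower (-0.52), against 0 higher and 1 lower in the deposited values and 1 each after quantile normalization. The call of Pex19 held on 5 of 5 scalings and that of Pex11a (0.63) on the median scale alone. Of 28 mitochondrial content genes Sdha, a subunit of complex II, was called higher (0.47, adjusted p 0.0208) and 0 were lower on the median scale, where their median change was 0.22, while after quantile normalization 1 was higher and 5 were lower.

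With XKA, no gene of these lists was called against KKAy model, beside 0.066% of all genes called higher and 0.11% called lower. Medians of the 10 pathway lists in that comparison ran from -0.26 for NADPH supply outside mitochondria to 0.02 for peroxisome genes, beside -0.06 over all genes. Those of the 8 marker lists ran from -0.56 (adipocyte) to 0.15 (stellate). Gpd2 came nearest to a call, at 16977 ± 2428 in XKA-H mice and 24824 ± 2787 in KKAy model mice, a log2 change of -0.55 (SE 0.12, adjusted p 0.0641). Gclc averaged 154273 ± 33770 in XKA-H mice and 237774 ± 32056 in KKAy model mice, a change of -0.65 (SE 0.18, adjusted p 0.209).

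**Figure D5:**
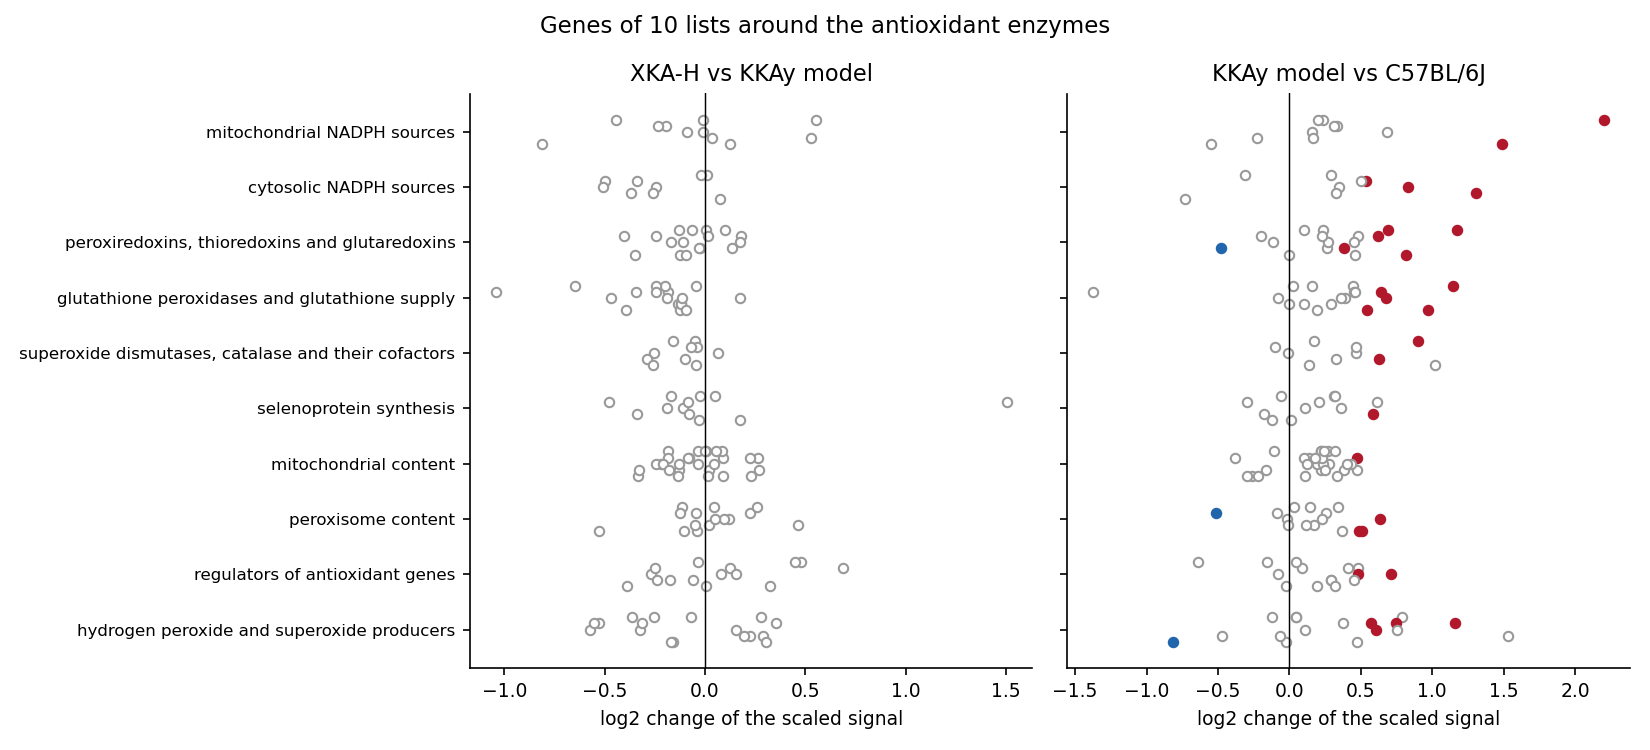
log2 change of every measured gene of 10 pathway lists (horizontal axes) in XKA-H against KKAy model (left) and KKAy model against C57BL/6J (right); each point is 1 gene, filled where the adjusted p was under 0.05 and open otherwise. No filled point appears on the left, and on the right the filled points lie mostly above 0, with Mthfd1l farthest at 2.20.

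In 3 lists of markers of other liver cells 1 or 2 genes were called between KKAy model and C57BL/6J livers. Over all genes 10.5% were called higher and 2.36% lower. Of 6 Kupffer cell and macrophage markers 0 were called higher and 1, Marco, lower (-3.10, adjusted p 0.0111). Marco averaged below the array median in KKAy model livers, so the size of its change rests on a dim signal, and the other 5 markers had log2 changes above 0, none called, with a list median of 0.20. The summed signal of the list ran from 94342 to 228316 in KKAy model and from 92654 to 160535 in C57BL/6J livers. Of 5 endothelial markers Stab2 and Clec4g were called higher (0.84 and 0.66), and the call of Clec4g was made on the median scale alone. The list ran from -0.53 to 0.84 with a median of 0.18, beside 0.15 over all genes. Its sums were 58767 to 76116 in KKAy model and 37877 to 53866 in C57BL/6J livers. Clec4g alone averaged 38708 in KKAy model and 24948 in C57BL/6J livers. Of 3 erythroid markers Alas2 was called higher (1.88, adjusted p 1.46e-06), and Hba-a1 was below the array median in all groups. The erythroid changes ran from -0.78 to 1.88. Their sums were 25444 to 42215 in KKAy model and 7770 to 16432 in C57BL/6J livers, where Alas2 alone averaged 35004 and 9677. In XKA-H livers 0 of 6 Kupffer cell and macrophage markers were called against KKAy model, and their summed signal ran from 73862 to 146726. The part of these cells in the levels of Nnt, Sod2 and Txn2 was not tested.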

How the data were processed

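Total RNA from 15 livers was hybridised by the authors to Affymetrix mouse 430 2.0 arrays. The deposited values are linear intensities per probe set. The methods describe an analysis in ArrayTrack with arrays brought to a common median of 1000. The deposited array medians, 127 to 182, were not at that target, so the step that gave these values was not known here. Probe summarisation was not given in the sources used here. The deposited medians differed, so each array was scaled to a median of 1000 and log2 transformed.

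The platform annotation gave 1 symbol to 34958 of 45101 probe sets, several to 932 and none to 9211, and 64 control probe sets were left out. A gene was its probe set with the highest mean log2 signal. Groups came from the sample labels, and group means were compared over 15 arrays by limma 3.58.1 with an intensity trend in R 4.3.3, two-sided, with Benjamini-Hochberg adjustment over all 18193 genes (or all probe sets). The fit was run on simulated data with independent noise and known changes, all larger than those of Sod2 and Txn2. Smaller changes and shifts shared by a whole array were not simulated. For arrays, their number limits the precision. No statement of litters or cages was used, and each array was taken as 1 mouse.

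Named genes were the 10 members, up to 4 called genes per list and comparison with the largest change, the 4 nearest measured genes on each side of Nnt in RefSeq order and the 5 genes most like Nnt. The members and lists were chosen with earlier results of these data known. The alternatives were other scalings, an offset of 100, the mean of probe sets, no trend, array weights, pairs of groups, a replicate block, Dunnett comparisons (mvtnorm 1.3.3) and arrays left out. Scaling to the 75th percentile, centring on mitochondrial genes and leaving out KKAy model replicate 3 with XKA-H replicate 1 were added after seeing the data. Same-numbered arrays of different groups were not paired by the labels.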

Additional observations from a re-analysis of the deposited data

Results flagged for a closer look

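Of 27 sets of 5 arrays, 9 genes in 3 groups, 3 held an array far from the rest, where chance flags about 1 in 20 such groups. Cat in KKAy model replicate 5 read 418658, below the other arrays of its group, with a gap of 0.757 of the group's range. Gpx1 in XKA-H replicate 5 read 378018, again the lowest of its group, with a gap of 0.717. Both arrays had the highest deposited median of their group, 162 and 161. Txnrd2 in C57BL/6J replicate 1 read 12697, above the rest of its group, with a gap of 0.733. None of the 3 genes was called in any comparison.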

How the results depend on the processing

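Under 28 alternatives, Nnt was called higher in all against C57BL/6J, at 1.16 to 1.56 in KKAy model and 1.30 to 1.71 in XKA-H livers, and no member was called between XKA-H and KKAy model in any. Sod2 kept its call between KKAy model and C57BL/6J in 27 and lost it with the mean of probe sets, and Txn2 kept its call in 20. Beside the single arrays named in the report, Txn2 lost it without the intensity trend (adjusted p 0.0756), with Dunnett comparisons (0.0999) and with KKAy model replicate 3 and replicate 1 of XKA-H both left out (0.0546). The members called between XKA-H and C57BL/6J, 1 on the median scale, were 2 in the deposited values, 3 after quantile normalization, 2 with the 75th percentile and 2 when centred on mitochondrial genes. The gains were Txn2 under all 4 and Prdx3 after quantile normalization. With single arrays left out, 2 to 4 members were called between KKAy model and C57BL/6J. Changes near 0 turned sign. In KKAy model against C57BL/6J these were Cat (-0.018 deposited, -0.083 quantile), Txnrd2 (-0.092 deposited, -0.061 quantile, -0.10 mean of probe sets, -0.026 at the 75th percentile, -0.056 mitochondrial), Sod1 (0.60 mean of probe sets, 0.019 array weights, 0.0043 without the named pair of arrays, -0.052 to 0.033 with single arrays left out) and Prdx3 (0.050 array weights, -0.084 to 0.13 with single arrays left out). In XKA-H against KKAy model they were Cat (0.057 quantile) and Sod1 (-0.022 mean of probe sets), and in XKA-H against C57BL/6J they were Sod1 (-0.10 deposited, -0.075 quantile, -0.025 at the 75th percentile, -0.057 mitochondrial), Cat (-0.031 deposited, -0.026 quantile) and Txnrd2 (-0.0077 mean of probe sets). The cause was not tested. The replicate block called 3, 0 and 1 members in KKAy model against C57BL/6J, XKA-H against KKAy model and XKA-H against C57BL/6J, with Nnt at 1.49 (adjusted p 3.34e-06) in the first, and changed no call of a member. Of 15 same-numbered pairs of arrays 1 correlated above 0.1 (range -0.13 to 0.20), namely replicate 5 of KKAy model and XKA-H. Whether same-numbered arrays shared a processing step was not tested. Over all genes, the 2336 calls of KKAy model against C57BL/6J became 1359 with Dunnett comparisons. The 32 calls of XKA-H against KKAy model became 63 in the deposited values, 113 after quantile normalization, 6 with the mean of probe sets, 4 without the trend, 57 with array weights, 19 with 2 groups alone, 0 with Dunnett comparisons, 84 at the 75th percentile, 101 with mitochondrial centring and 11 to 61 with single arrays left out. The 1341 calls of XKA-H against C57BL/6J became 828 with the mean of probe sets, 881 without the trend and 700 with Dunnett comparisons. Dim probe sets near or below the array median limit what can be said of them.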
